A study of Mus musculus with 15 samples.

Results

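The 10 genes described here encode the proteins that cut actin filaments and that hold or recycle single actin subunits: Cfl1, Cfl2, Dstn, Gsn, Wdr1, Cap1, Pfn1, Pfn2, Tmsb4x and Tmsb10. They were chosen by symbol and not by a cut on their measured values, though with earlier results of these data known. All 10 were found among the 45706 genes measured in each library. All are protein-coding genes, and their values are for whole genes, not exons or isoforms. On GRCm38 the genes the results turn on most are Cfl1 (ENSMUSG00000056201, chromosome 19, 5490455 to 5495201, plus strand), Dstn (ENSMUSG00000015932, chromosome 2, 143915320 to 143943324, plus strand), Wdr1 (ENSMUSG00000005103, chromosome 5, 38526813 to 38563221, minus strand) and Tmsb10 (ENSMUSG00000079523, chromosome 6, 72957347 to 72958748, minus strand). Actin filaments turn over as old ends are cut and taken apart and as the freed subunits are stored, recharged with ATP and added to new ends. Cofilins and gelsolin do the cutting, cyclase-associated protein and profilins return subunits to the growing end, and thymosins keep a reserve of subunits out of use. In oligodendrocytes, the cells that wrap axons in myelin, an actin-rich leading edge is laid down first and is then disassembled as the sheath spreads, and cofilin-family proteins and gelsolin are known from that step.

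The cultures came from mice in which both Srf alleles are floxed, that is, carry sites for the Cre recombinase, and the controls carried those alleles as well. SRF is a transcription factor that acts with MRTF cofactors, which sense the pool of actin subunits, on many actin genes. SRF-KO OPCs (oligodendrocyte precursor cells, 3 libraries) received an adeno-associated virus carrying eGFP-Cre, against a virus with a deleted Cre for control OPCs (4 libraries), and both were frozen 48 hours after infection. SRF-KO OLs (4 libraries) received a lentivirus with Cre and GFP, against GFP alone for control OLs (4 libraries), and both were frozen on day 3 of differentiation. No Cre-treated cells without floxed alleles were among the samples, so an effect of Cre itself cannot be told apart from loss of SRF. Nothing in the labels says that the libraries of a group came from separate animals, so the p-values measure the spread between these libraries, which may be technical. In RNA from whole cultures, fewer cells of a type and less RNA per cell cannot be told apart.

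Total expected counts per library, the RSEM estimates of reads per gene, spanned 9074812 to 15125229 for the SRF-KO and 8964310 to 16026511 for the control libraries of OPCs, and 4303739 to 11721394 for the SRF-KO and 7188698 to 13139258 for the control libraries of OLs. Srf itself averaged 0.21 ± 0.013 CPM in SRF-KO OPCs and 7.87 ± 1.71 CPM in control OPCs, and 3.04 ± 0.96 CPM in SRF-KO OLs and 8.29 ± 0.97 CPM in control OLs (SD over libraries; CPM are expected counts per library total after correction by TMM factors, unless said otherwise). SRF-KO OPC replicate 2 and SRF-KO OL replicate 4 stood apart from the other libraries of their stage, at 47.6 against -23.0 to 6.01 and at 80.5 against -18.8 to 0.45 on the first principal component, and results that rest on them are given with and without them. Among 8 lists of cell-type markers, the 8 summed oligodendrocyte markers had 14400 to 21337 CPM of library totals in SRF-KO OLs and 22160 to 32251 in control OLs. In OPC libraries they had 480 to 520 CPM in SRF-KO OPCs and 428 to 472 CPM in control OPCs. The 5 newly formed oligodendrocyte markers summed to 1625 to 2135 CPM in SRF-KO OLs and 2391 to 2893 CPM in control OLs. All 6 precursor markers reached 1 CPM in OPC libraries. The 7 astrocyte markers were all present in OL cultures and summed to 9115 to 14941 CPM in SRF-KO OLs and 18566 to 28675 CPM in control OLs, led by Gfap, so the cultures labelled OL also held astrocyte transcripts at levels that differed between the groups. In OPC libraries the same 7 summed to 1411 to 1525 CPM in SRF-KO OPCs and 1106 to 1254 CPM in control OPCs. The 11 microglial and macrophage markers summed to 0.992 to 1.95 CPM in SRF-KO OPCs and 0.187 to 1.01 CPM in control OPCs. In OL libraries they summed to at most 19.8 CPM. Several of them, such as Aif1, Cx3cr1 and Tmem119, had a rounded count of 0 in all OPC libraries. The highest of the list in OPCs was P2ry12, which averaged 0.998 CPM in SRF-KO OPCs and 0.287 CPM in control OPCs. The endothelial list summed to at most 2.62 CPM, and the neuronal and the fibroblast and mural lists to at most 101 CPM, in any library.

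The level of each gene per transcript length could be compared in the OPC files, which list spliced transcript lengths, but not in the OL files. The OL files list longer lengths for all 10 genes. Dstn was listed with 1911 bases in the OPC files and with 28005, its full genomic span, in the OL files. Others fell short of their span, such as Cfl1 with 3545 of 4747 bases. Several lengths varied between OL libraries, as for Wdr1 (8180 to 11260) and Gsn (12896 to 21283). Over the 7 OPC libraries Cfl1, the non-muscle cofilin that severs ageing filaments, averaged 2552 TPM (2326 to 2778), and Tmsb4x, which encodes thymosin beta-4, the main sequesterer of actin subunits in many cells, averaged 2494 TPM (2075 to 3091). Cfl1 was the higher of the pair in 3 of 7 libraries, so their order was not resolved. Tmsb10, a second beta-thymosin, followed at 1404 TPM (811 to 2085) and stood above Pfn1, the widely expressed profilin, at 1045 TPM (908 to 1174), in 6 of 7 libraries. Each further step down held in 7 of 7 libraries: Dstn (destrin, or actin-depolymerising factor) at 347 TPM, Pfn2 (the profilin enriched in brain) at 302, Wdr1 (a cofilin helper that speeds disassembly) at 188, Cfl2 (the cofilin best known from muscle) at 120, and Gsn (gelsolin, which severs and caps filaments when calcium rises) at 80.9 TPM. Cap1, which encodes cyclase-associated protein 1 and strips cofilin from spent subunits, came last at 8.15 TPM (5.72 to 10.2), with 118 to 215 counts per OPC library, the fewest of the 10. Within the cofilin family Cfl1 was thus the main transcript: the TPM ratio of Dstn over Cfl1 averaged 0.15 in SRF-KO OPCs and 0.126 in control OPCs, and that of Cfl2 over Cfl1 0.0465 in SRF-KO OPCs and 0.0475 in control OPCs.

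**Figure D1:**
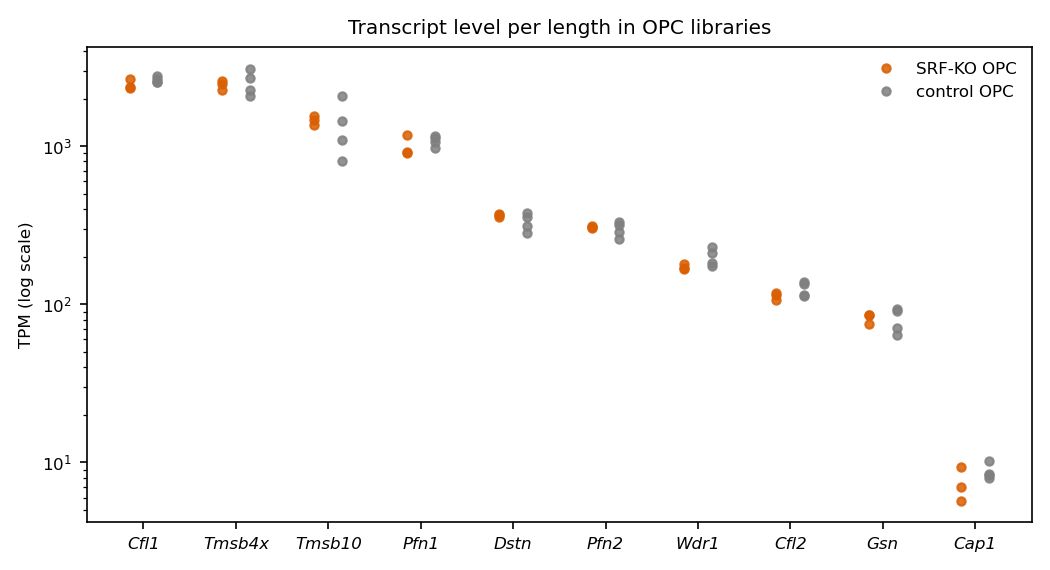
Deposited TPM of the 10 genes (log scale) in the 3 SRF-KO OPC libraries (orange, left of each pair) and the 4 control OPC libraries (grey), 1 point per library. Cfl1 and Tmsb4x lie highest, with means of 2552 and 2494 TPM over the 7 libraries, and Cap1 lies lowest at 8.15 TPM.

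SRF binds a DNA element called the CArG box, and the promoters of the 10 genes were read for it, from 250 bases before to 50 after each RefSeq start site on GRCm38.p6. The 14 windows of the 10 genes held 0 exact matches on either strand, where 535 of 32851 promoter windows of all genes (1.63%) held at least 1. With 1 base of the 10 allowed to differ, 4 of the 14 windows held a match, those of Gsn, Dstn, Wdr1 and Cfl1, against 6936 of all windows (21.1%). A match describes letters and is not a binding site, and a missing match says only that the letters are not in this window. The 100 bases around the first match of each window are shown because no window of the set came closer to the SRF element. The Dstn window held a second near-match, CCTTAACTGG, which begins 40 bases after the start site and is not shown. In the stretches shown, capitals mark the near-match, and each reads 5′ to 3′ on the strand of its gene. They lie at chr2:35256137-35256236 on the plus strand (Gsn), chr2:143915165-143915264 on the plus strand (Dstn), chr5:38561713-38561812 on the minus strand (Wdr1) and chr19:5490230-5490329 on the plus strand (Cfl1), with the first base of the match 162, 106, 53 and 165 bases before the start site.
Gsn: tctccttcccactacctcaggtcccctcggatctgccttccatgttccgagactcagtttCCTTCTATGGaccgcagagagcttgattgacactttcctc
Dstn: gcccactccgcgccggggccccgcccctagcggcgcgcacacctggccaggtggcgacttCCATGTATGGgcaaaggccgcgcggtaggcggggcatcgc
Wdr1: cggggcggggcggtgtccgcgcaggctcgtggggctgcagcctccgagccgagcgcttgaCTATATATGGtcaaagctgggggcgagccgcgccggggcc
Cfl1: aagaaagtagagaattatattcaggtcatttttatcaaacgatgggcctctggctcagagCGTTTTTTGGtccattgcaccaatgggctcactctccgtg

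The first comparison, SRF-KO OPCs over control OPCs, asks which of these genes differ in dividing precursors once Srf is removed. None of the 10 passed. The log2 fold changes lay between -0.23 (Cap1) and 0.21 (Dstn), and the 2 most abundant transcripts, Cfl1 and Tmsb4x, had -0.05 and -0.03. In edgeR's quasi-likelihood test 0 of 10 had a Benjamini-Hochberg adjusted p under 0.05, where 0.0678% of the 13271 genes tested did. DESeq2 called 0 of 10 (0.999% of all genes), and so did limma-voom (10 of the 13271 genes). At an unadjusted p under 0.05 there was 1 of 10, Dstn, against 11.9% of all genes. The median log2 fold change of the 10 was -0.04, with 4 positive and 6 negative, and that of all genes tested was -0.00.

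Among the severing genes, Cfl1 had 1627, 1873 and 1576 CPM in SRF-KO OPCs, against 1874, 1815, 1683 and 1618 CPM in control OPCs, and the groups overlapped throughout. Its log2 fold change of -0.05 had a 95% interval of -0.22 to 0.13, and Cfl2, at 224 to 246 CPM in SRF-KO OPCs and 232 to 268 CPM in control OPCs, had one of -0.07 (-0.25 to 0.11). Dstn had 456, 488 and 461 CPM in SRF-KO OPCs, against 376, 393, 421 and 425 CPM in control OPCs. Each knockout library thus stood above each control, by a log2 of 0.21 (SE 0.074, edgeR adjusted p = 0.317), a difference that did not pass. Gsn overlapped between the groups, with 133 to 146 CPM in SRF-KO OPCs and 113 to 144 CPM in control OPCs (log2 0.15, 95% interval -0.07 to 0.37). Wdr1 ran the other way from Dstn, at 367, 372 and 376 CPM in SRF-KO OPCs and 391, 388, 426 and 422 CPM in control OPCs. All 3 knockout libraries were below all 4 controls, yet the log2 fold change was only -0.13 (SE 0.072, edgeR adjusted p = 0.496).

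Of the monomer-binding genes, Cap1 had 13.0, 10.7 and 13.2 CPM in SRF-KO OPCs, against 13.4, 13.6, 13.7 and 16.8 CPM in control OPCs. The groups did not overlap, but the nearest libraries were 13.2 and 13.4 CPM, and the log2 fold change of -0.23 had an SE of 0.17. Pfn2 also did not overlap, at 402 to 417 CPM in SRF-KO OPCs and 366 to 396 CPM in control OPCs (log2 0.10, 95% interval -0.05 to 0.25), while Pfn1 did, at 421 to 561 CPM in SRF-KO OPCs and 416 to 545 CPM in control OPCs (log2 -0.06, -0.33 to 0.20). The thymosins were the least settled, because the control OPCs themselves spread widely. Tmsb10 had 337, 393 and 363 CPM in SRF-KO OPCs, against 589, 369, 181 and 242 CPM in control OPCs, so the 3 knockout libraries lay inside the control range. The 95% interval of its log2 fold change, -0.58 to 0.74, spans changes in either direction. Tmsb4x had 920 to 1030 CPM in SRF-KO OPCs and 734 to 1349 CPM in control OPCs (log2 -0.03, 95% interval -0.40 to 0.35). In all, 4 of 10 genes had groups that did not overlap in TMM-scaled CPM (Dstn and Pfn2 higher, Wdr1 and Cap1 lower in SRF-KO OPCs), against 12.2% of all genes tested. The count depended on the unit: Cap1 overlapped in CPM of library totals, and in deposited TPM all 10 genes overlapped, where 10.8% of all genes did not. Without SRF-KO OPC replicate 2 the 4 genes still did not overlap in TMM-scaled CPM and Gsn joined them (higher), where 19.4% of all genes did not overlap, and 0 of 10 passed edgeR's adjusted threshold (0.0301% of all genes).

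**Figure D2:**
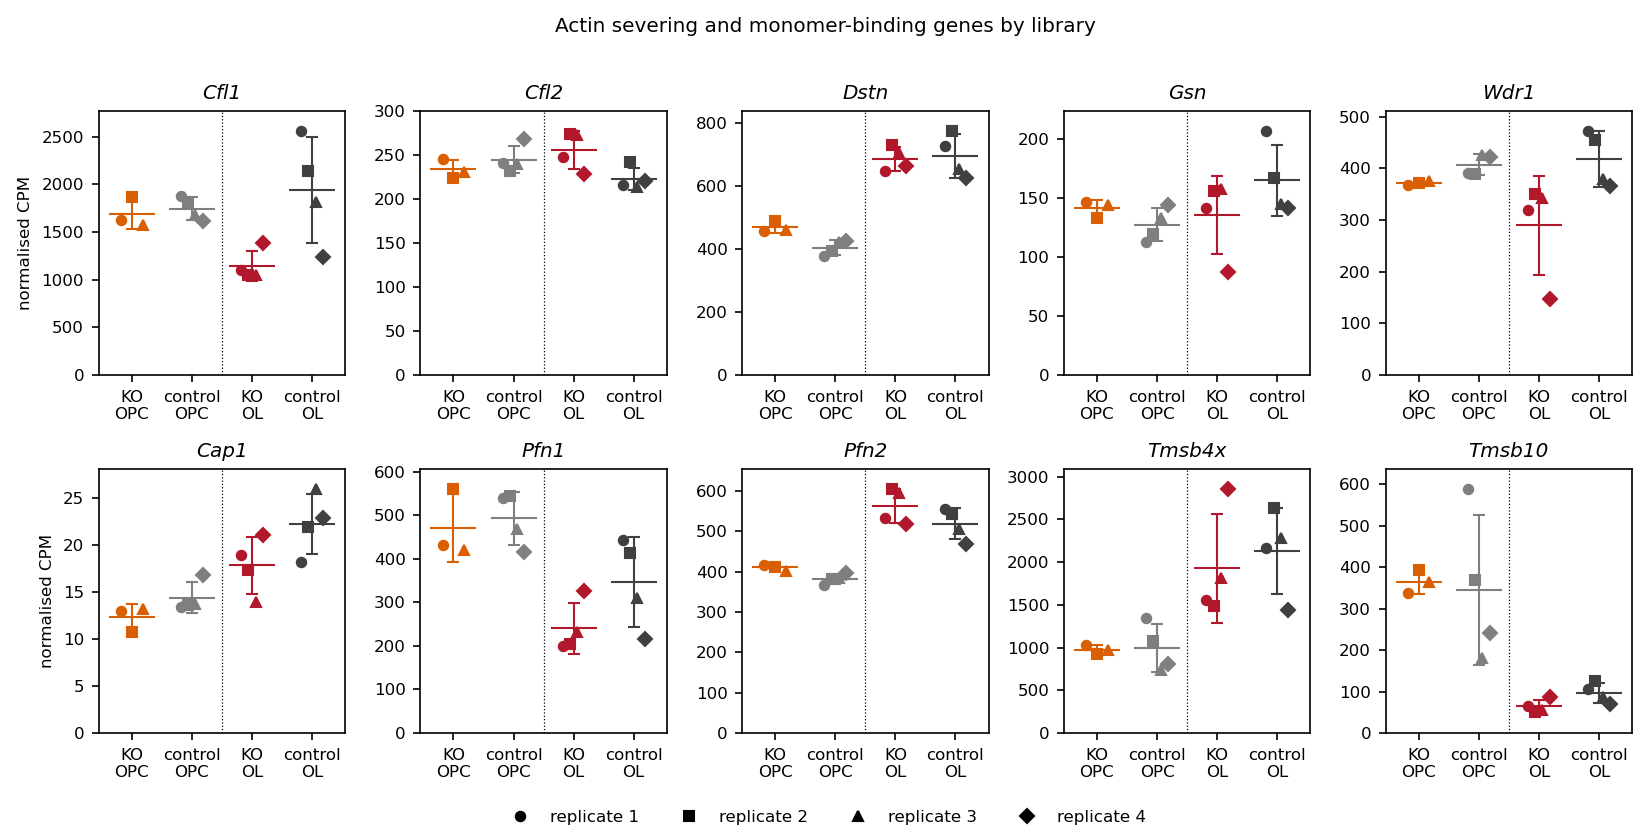
Normalised CPM of each gene in every library (points, shaped by replicate number), with the mean (long dash) and SD (bars) of each group, knockouts left of their controls; the dotted line separates the stages, which were counted over different gene models and are not compared in level. In OLs, Cfl1, Pfn1 and Tmsb10 were lower in SRF-KO replicates 1 to 3 than in control replicates 1 to 3, and SRF-KO replicate 4 and control replicate 4 ran against that pattern.

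The second comparison, SRF-KO OLs over control OLs, takes the question to differentiating cells on day 3. Here 8 of 10 genes had negative log2 fold changes, with a median of -0.30 beside 0.02 for all genes tested, and the lowest estimates were those of Cfl1 (-0.76), Tmsb10 (-0.58), Wdr1 (-0.53) and Pfn1 (-0.52). With all 8 libraries none passed in edgeR or limma-voom. edgeR's quasi-likelihood test called 0 of 10 at an adjusted p under 0.05, against 0.296% of 15193 genes, and limma-voom called 0, against 40 of the 15193 genes. DESeq2 called 1, Cfl1 (log2 -0.77, adjusted p = 0.0296), against 1.97% of all genes, and without SRF-KO OL replicate 4 edgeR called 2, Cfl1 and Tmsb10, both lower, against 2.62% of all genes lower. At an unadjusted edgeR p under 0.05 there were 2 of 10, again Cfl1 and Tmsb10, against 11.6% of all genes.

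Cfl1 had 1098, 1045, 1053 and 1382 CPM in SRF-KO OL replicates 1 to 4, against 2564, 2137, 1814 and 1244 CPM in control OL replicates 1 to 4. SRF-KO replicates 1 to 3 were below every control, and the groups overlapped through SRF-KO replicate 4, the highest knockout, and control replicate 4, the lowest control. In deposited TPM they did not overlap: Cfl1 had 879, 868, 910.1 and 812 TPM in SRF-KO OLs, with replicate 4 the lowest of them, against 1286, 1122, 1154 and 1079 TPM in control OLs. The log2 fold change was -0.76 (SE 0.23, edgeR adjusted p = 0.229). Without SRF-KO OL replicate 4 it was -0.88 (SE 0.21, edgeR adjusted p = 0.0329), and without any other 1 library the edgeR adjusted p ranged from 0.0799 to 0.596. Cfl1 transcripts hold 2908 windows of 63 bases, the read length, and 447 of them also occur in 4 other genes, with Snx32 sharing the most. The counts of Snx32 were not added to Cfl1. The gene model Gm6180 shares 130 of the windows, and whether its reads came from Cfl1 was not tested. Gm6180 had 221 to 243 CPM of library totals in SRF-KO OLs and 218 to 369 CPM in control OLs, but at most 2.94 CPM in any OPC library, and with its counts added the log2 fold change of Cfl1 was -0.74 (edgeR adjusted p = 0.244).

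The other cofilin-family genes, Cfl2 and Dstn, had estimates of 0.20 and -0.02, and neither passed. Cfl2 had 249, 274, 273 and 229 CPM in SRF-KO OLs, against 216, 242, 214 and 220 CPM in control OLs. Knockout replicates 1 to 3 stood above every control and replicate 4 among them, for a 95% interval of -0.10 to 0.50 on the log2 scale, and the gene also did not pass without SRF-KO OL replicate 4 (0.22, edgeR adjusted p = 0.216). Dstn had 645, 729, 703 and 662 CPM in SRF-KO OLs and 727, 774, 654 and 623 CPM in control OLs, fully intermixed (95% interval of the log2 fold change -0.35 to 0.31). Its sign turned with the scaling: it was 0.21 with library totals, which moved the median of all genes by 0.22 in this comparison, so relative to that median it lay near 0 either way. Gsn had 141, 156 and 158 CPM in SRF-KO OL replicates 1 to 3 and 87.7 CPM in replicate 4, against 207, 167, 145 and 142 CPM in control OLs. Replicate 4 stood far below the controls and replicate 1 just under the lowest of them, and the log2 fold change was -0.28 with all libraries and -0.14 without that one (95% interval -0.42 to 0.13).

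In TMM-scaled CPM, Wdr1 was the 1 gene of 10 whose groups did not overlap in OLs, against 8.09% of all genes tested. It had 319, 351, 342 and 148 CPM in SRF-KO OLs, against 472, 455, 379 and 365 CPM in control OLs. The knockout libraries were lower in 4 of 4 cases, by far the most in replicate 4, and the log2 fold change was -0.53 (SE 0.25, edgeR adjusted p = 0.453). Without replicate 4 it was -0.33 (SE 0.12, edgeR adjusted p = 0.132), still short of the threshold. In CPM of library totals, which moved the median of all genes by 0.22, Wdr1 overlapped (153 to 386 CPM in SRF-KO OLs, 344 to 403 in control OLs). There Pfn2 was the 1 gene of 10 that did not, higher in SRF-KO OLs (537 to 672 CPM, against 461 to 512 in control OLs). The share of all genes was not counted in that unit. In deposited TPM the groups of Wdr1 overlapped, at 37.2 to 110.8 TPM in SRF-KO OLs and 73.6 to 104.5 TPM in control OLs, and 2 of 10 genes did not overlap, Cfl1 and Tmsb10, both lower in SRF-KO OLs, against 8.75% of all genes. The log2 ratio of group means in TPM was 0.07 for Wdr1, 0.14 for Gsn, 0.29 for Dstn and 0.16 for Tmsb4x, where the median of all genes was 0.32. Relative to that median the 4 stood at -0.25, -0.18, -0.02 and -0.16, against -0.55, -0.31, -0.04 and -0.17 relative to the median in TMM-scaled CPM. TPM also divides by a length set for each library. The listed length varied between OL libraries for Wdr1 (8180 to 11260 bases) and Gsn (12896 to 21283), but not for Dstn (28005). The part of length in these shifts was not tested. In TMM-scaled CPM, replicate 4 was the highest knockout for Cfl1, Cap1, Pfn1, Tmsb4x and Tmsb10 and the lowest for Cfl2, Gsn, Wdr1 and Pfn2; in TPM it was the lowest for Cfl1 too, and Tmsb4x alone of the 10 was highest in it. Of the 4 SRF-KO OL libraries it held the most residual Srf, 4.34 CPM against 2.06 to 3.05 CPM. It also had the highest mitochondrial share of the 8 OL libraries (14.2% of counts, against 9.08% to 11.6%), and the part of either in its values was not tested.

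Among the monomer-binding genes in OLs, Pfn1 had 199, 205, 231 and 327 CPM in SRF-KO OLs, against 443, 413, 310.1 and 216 CPM in control OLs. Here too replicate 4 of each group crossed over, and the log2 fold change of -0.52 (SE 0.24, edgeR adjusted p = 0.440) became -0.73 (SE 0.19, edgeR adjusted p = 0.0525) without SRF-KO OL replicate 4. Pfn2 overlapped in TMM-scaled CPM, though not in CPM of library totals. It had 533, 605, 594 and 519 CPM in SRF-KO OLs and 555, 543, 507 and 469.8 CPM in control OLs (log2 0.12, 95% interval -0.20 to 0.44). Cap1 stayed low, at 19.0, 17.3, 14.0 and 21.1 CPM in SRF-KO OLs and 18.2, 21.9, 26.0 and 22.8 CPM in control OLs. Knockout and control libraries overlapped, with a log2 fold change of -0.31 (95% interval -0.66 to 0.04). Without SRF-KO OL replicate 4 it was -0.40 (95% interval -0.72 to -0.08, edgeR adjusted p = 0.135).

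Tmsb10 had 66.2, 49.6, 55.5 and 86.6 CPM in SRF-KO OLs, against 106, 124, 86.2 and 69.4 CPM in control OLs. Knockout replicates 1 to 3 lay below every control and replicate 4 above 2 of them, whereas in deposited TPM the groups did not overlap, at 159 to 204.4 TPM in SRF-KO OLs and 204.6 to 253 TPM in control OLs. The log2 fold change was -0.58 (SE 0.22, edgeR adjusted p = 0.331), and -0.77 (SE 0.17, edgeR adjusted p = 0.0278) without SRF-KO OL replicate 4. Tmsb10 shares 23.0% of its 63-base windows with the gene models Gm9844 and Gm3788, the highest share of the 10 genes, ahead of Cfl1 at 15.4%. Gm9844 had 33.4 to 67.2 CPM of library totals in SRF-KO OLs and 52.6 to 85.9 CPM in control OLs, beside 53.1 to 89.4 and 75.7 to 110.2 CPM of Tmsb10 itself in those groups, so the level of Tmsb10 in the OL files is uncertain. With both copies added the log2 fold change was -0.67 (edgeR adjusted p = 0.291). Tmsb4x, which shared no window with another gene, had 1559, 1483, 1808 and 2859 CPM in SRF-KO OLs, against 2161, 2636, 2284 and 1438 CPM in control OLs. The highest of the 8 values was a knockout and the lowest a control, both replicate 4. The log2 fold change of -0.14 had a 95% interval of -0.70 to 0.42. Without SRF-KO OL replicate 4 it was -0.42 (95% interval -0.83 to -0.01, edgeR adjusted p = 0.217). With library totals and all libraries it was 0.09, or -0.15 relative to the median of all genes. Without SRF-KO OL replicate 4 the groups of 4 genes did not overlap in TMM-scaled CPM (Cfl1, Wdr1 and Tmsb10 lower and Cfl2 higher in SRF-KO OLs), where 19.5% of all genes did not. The summed astrocyte and oligodendrocyte markers given above were lower in each SRF-KO OL library than in each control OL library, and the part of cell composition in the values of Cfl1, Wdr1, Pfn1 and Tmsb10 was not tested.

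**Figure D3:**
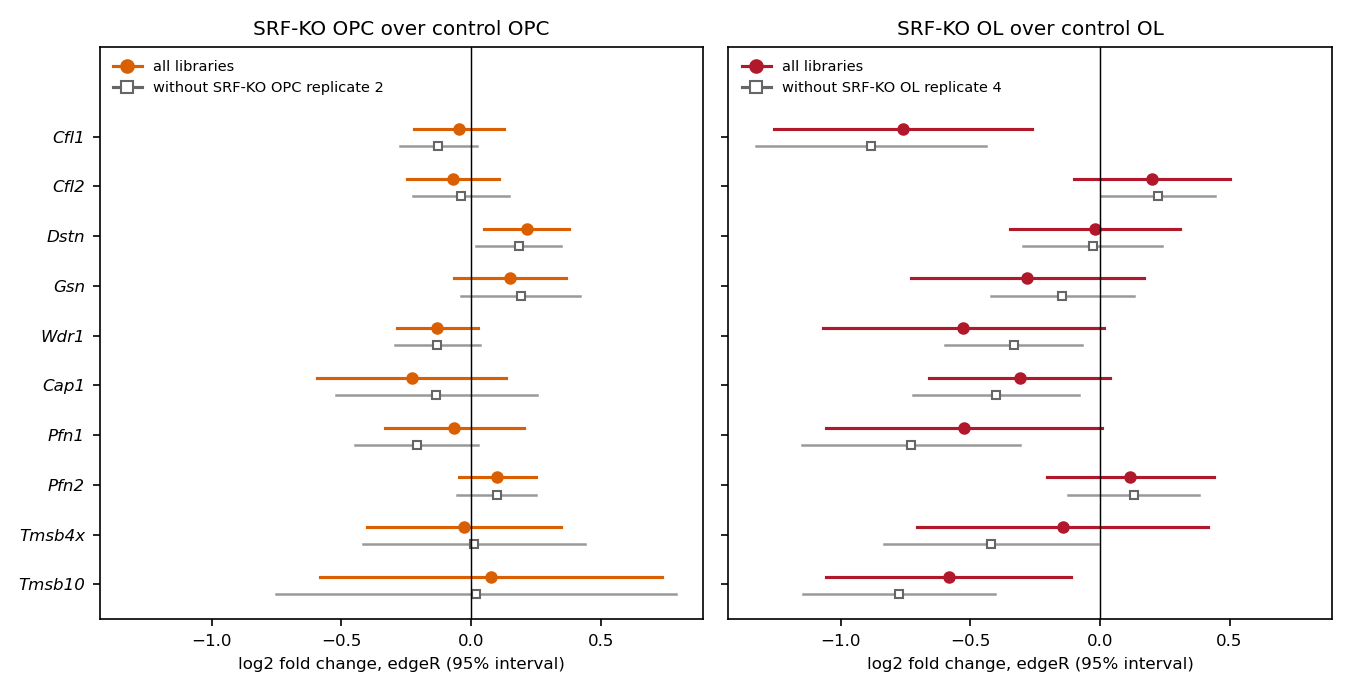
edgeR log2 fold changes (knockout over control, x axis) of the 10 genes in OPCs (left) and OLs (right) with 95% intervals; filled circles use all libraries, and open squares leave out SRF-KO OPC replicate 2 or SRF-KO OL replicate 4. In OPCs Dstn alone has an interval clear of 0, at 0.21, and in OLs Cfl1 lies lowest, at -0.76 with all libraries and -0.88 without replicate 4.

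Whether the knockout acted differently on these genes in the 2 stages was tested as the difference of the log2 fold changes, OL minus OPC, over all 15 libraries. Of 10 genes, 0 passed an edgeR adjusted p of 0.05, against 0.112% of 16135 genes. Cfl1 was the 1 gene under an unadjusted p of 0.05 (9.25% of all genes), with a difference of -0.73 (SE 0.26, edgeR adjusted p = 0.355). Without SRF-KO OL replicate 4 it was -0.83 (edgeR adjusted p = 0.105) and 0 of 10 passed, against 0.836% of all genes. Tmsb10 (-0.68, SE 0.41), Pfn1 (-0.48, SE 0.30), Gsn (-0.44, SE 0.25) and Wdr1 (-0.41, SE 0.29) also had negative differences, as did 9 of the 10 genes, with a median of -0.33 beside 0.00 for all genes. Cfl2 was the exception at 0.25 (SE 0.16). The stages also differ in the virus used, in residual Srf and in the gene models counted, so a difference between them cannot be told apart from those.

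Paralogs that do the same job were set against each other within each library, a ratio that needs no scaling between libraries. In OLs, Cfl2 and Dstn stood higher relative to Cfl1, and Pfn2 relative to Pfn1, in SRF-KO replicates 1 to 3 than in any control. Cfl2 over Cfl1 was 0.226, 0.262, 0.259 and 0.166 in SRF-KO OLs, against 0.0843, 0.113, 0.118 and 0.177 in control OLs, a log2 difference of 0.92 or 1.89-fold (two-sided exact permutation p = 0.0571, adjusted p = 0.152 over 8 ratio tests). Dstn over Cfl1 was 0.587, 0.698, 0.667 and 0.479 in SRF-KO OLs, against 0.284, 0.362, 0.360 and 0.501 in control OLs (1.63-fold, exact permutation p = 0.0571, adjusted p = 0.152). In both ratios knockout replicates 1 to 3 stood above every control, and SRF-KO replicate 4 lay just under control replicate 4. Pfn2 over Pfn1 was 2.68, 2.96, 2.57 and 1.59 in SRF-KO OLs, against 1.26, 1.31, 1.63 and 2.17 in control OLs (1.53-fold, exact permutation p = 0.0857, adjusted p = 0.171). Tmsb10 over Tmsb4x was 0.0424, 0.0335, 0.0307 and 0.0303 in SRF-KO OLs, against 0.0489, 0.0472, 0.0377 and 0.0483 in control OLs (0.748-fold, exact permutation p = 0.0571, adjusted p = 0.152). For this ratio the overlap came from control replicate 3 and SRF-KO replicate 1, and replicate 4 sat with the other knockouts. No ratio passed, and the smallest unadjusted p these designs allow is 0.0286. After adjustment over 8 tests, a ratio could pass only if several others also reached that floor. Leaving out 1 OL library gave log2 differences of 0.75 to 1.11 for Cfl2 over Cfl1 and 0.58 to 0.85 for Dstn over Cfl1. For Pfn2 over Pfn1 they were 0.51 to 0.81. None of these passed (exact permutation, adjusted p = 0.114 to 0.274). The thymosin ratio carries the uncertainty of Tmsb10 noted above.

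In OPCs the same ratios differed less between the groups. Dstn over Cfl1 had a log2 difference of 0.26 (exact permutation p = 0.143, adjusted p = 0.229), Tmsb10 over Tmsb4x 0.21 (p = 0.429), Pfn2 over Pfn1 0.17 (p = 0.257) and Cfl2 over Cfl1 -0.02 (p = 0.857), all with overlapping groups. The difference of each ratio between the stages was not tested.

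**Figure D4:**
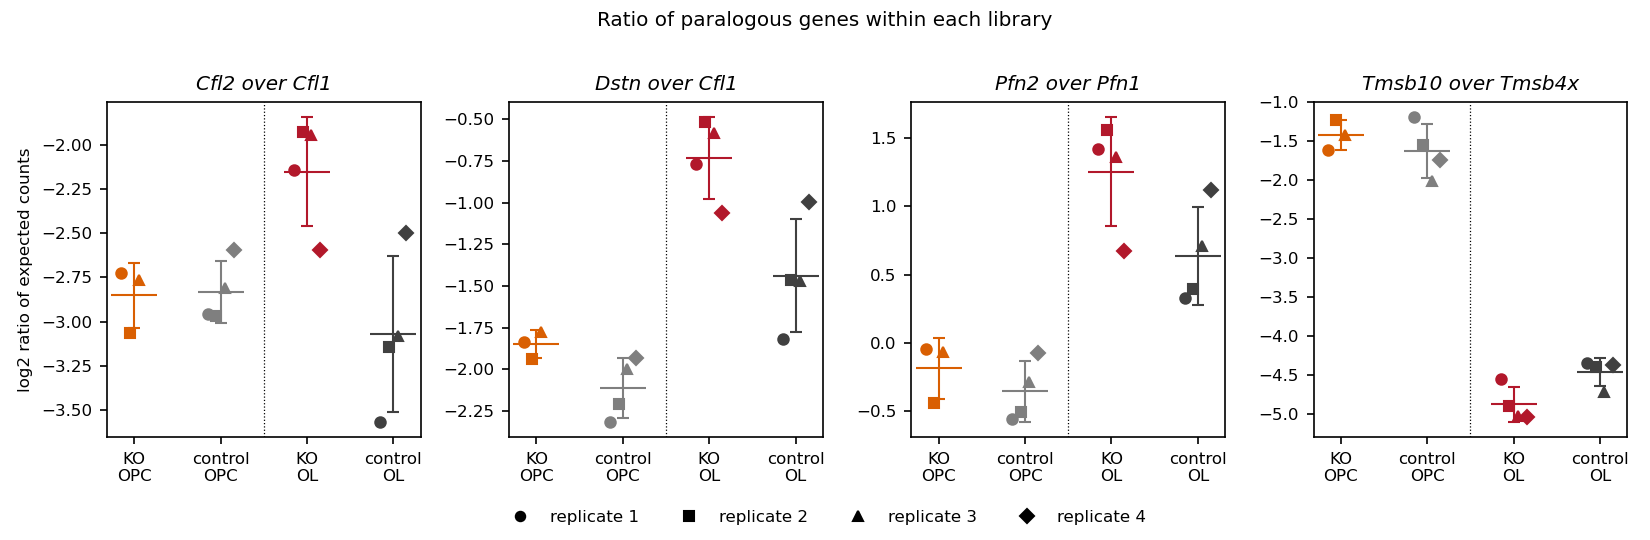
Log2 ratio of expected counts of paralogous genes within each library (y axis), for knockouts left of their controls in each stage, with the mean (long dash) and SD (bars). In OLs the Cfl2, Dstn and Pfn2 ratios of SRF-KO replicates 1 to 3 lie above all controls, SRF-KO replicate 4 lies inside the control range, and the Tmsb10 ratio runs the other way.

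Other actin turnover genes gave a wider view of the same pathway: 48 genes for cofilin kinases and phosphatases, twinfilins, coronins, capping proteins, tropomodulins, MICAL enzymes and minor gelsolin, profilin and thymosin relatives. Of 38 tested in OPCs, 21 were positive and 17 negative, with a median of 0.03 beside -0.00 for all genes, and 0 passed edgeR's adjusted threshold in either direction. At an unadjusted p under 0.05 there were 0 higher, against 5.57% of all genes, and 3 lower, Coro1c, Mical1 and Tesk1, against 6.33% of all genes. Coro1c, a coronin that acts with cofilin on old filaments, averaged 359 ± 24.3 CPM in SRF-KO OPCs and 414 ± 17.7 CPM in control OPCs (log2 -0.21, edgeR adjusted p = 0.337). Mical1, which oxidises actin and so weakens filaments, averaged 20.5 ± 3.68 CPM in SRF-KO OPCs and 27.7 ± 4.12 CPM in control OPCs (log2 -0.44, edgeR adjusted p = 0.348). Of 38 tested in OLs, 12 were positive and 26 negative, with a median of -0.08 beside 0.02 for all genes, and again 0 passed in either direction. At an unadjusted p under 0.05 there were 1 higher, Abracl, against 5.84% of all genes, and 2 lower, Ssh3 and Coro7, against 5.73% of all genes. Abracl averaged 9.42 ± 1.70 CPM in SRF-KO OLs and 6.63 ± 0.77 CPM in control OLs (log2 0.49, edgeR adjusted p = 0.309). Ssh3, a slingshot-family gene related to the phosphatases that switch cofilin on, averaged 4.28 ± 2.13 CPM in SRF-KO OLs and 7.65 ± 1.14 CPM in control OLs (log2 -0.76, edgeR adjusted p = 0.384). The LIM kinases Limk1 and Limk2, which switch cofilin off, had log2 fold changes of -0.38 and 0.15 in OPCs and -0.24 and 0.00 in OLs, and neither passed in either stage.

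The genes whose log2 CPM most resembled the member with the smallest p of each stage were also listed, as a description without a test, since libraries of 2 groups share depth, scaling and group. Over 7 OPC libraries and 6015 genes, Dstn was matched most closely by Tmem184c, Ccnd2 (cyclin D2) and Ank3 (ankyrin-G), each at Pearson r = 0.99. Over 8 OL libraries and 5068 genes, Cfl1 was matched by Gapdh (r = 0.99), the glycolytic enzyme often used as a loading standard, Ckb (brain creatine kinase, r = 0.98) and Gm8797 (r = 0.98). Gapdh had a log2 fold change of -0.67 and Ckb of -0.88 in SRF-KO OLs over control OLs, neither past the threshold (edgeR adjusted p = 0.258 and 0.220), so the libraries with low Cfl1 were also low in these 2 abundant transcripts.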

How the data were processed

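PolyA libraries of primary mouse cultures were prepared with Smart-seq2, an unstranded method, and read as single reads of 63 bases, per the labels' protocols. Groups were taken from titles; the treatment tag of the SRF-KO OLs names Cre but ends in "control", and Srf was lower in those 4 libraries than in the controls. The series text mentions Olig2-Cre and mesenchymal stem cells, unlike the labels of the samples. Per the submitters' processing notes, the authors used bcl2fastq, STAR and RSEM; the notes hold no version and name the builds GRCm38 and Rnor_6.0; all gene IDs are mouse. The deposited expected counts are the authors' RSEM estimates, in which a read that fits several genes is divided among them. The deposited TPM values divide them by effective length, per the file headers. By the listed lengths, OL files count introns at least in part, so levels were not compared between stages.

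Symbols came from the reference gene table (45143 of 45706 IDs) and coordinates from GENCODE and RefSeq tables on GRCm38. Expected counts were rounded, filtered (filterByExpr), TMM-scaled and tested with edgeR 4.0.16 (quasi-likelihood, R 4.3.3), with Benjamini-Hochberg adjustment over all genes tested and a threshold of 0.05. Each stage was fitted alone, and the difference of effects over all 15 libraries. The SE is the absolute log2 fold change over the square root of F. Ratios were tested by exact permutation of libraries (35 splits in OPCs, 70 in OLs). Alternatives were library totals, DESeq2 1.42.0, limma-voom 3.58.1, no filter, a replicate block, leaving out each library, TPM and, chosen after seeing the data, adding near-identical copies and comparing the overlap of the groups in CPM of library totals and in TPM. In simulated data with log2 changes of 1 in genes averaging at least 10 CPM, edgeR recovered 98% in OPCs, 75% in OLs and 57% for the difference. It also called 16 unchanged genes in OPCs, 6 in OLs and 6 for the difference. No simulated library stood apart as SRF-KO OL replicate 4 did, and a change of 1 exceeds each estimate for the 10 genes with all libraries. Recovery of changes of their size was not tested. The 10 genes, the lists and the tests were chosen with earlier results of these data known. Named genes are the 10 members, Srf, the 2 companion genes with the smallest p per stage when none passed, and the 3 genes most correlated (average log2 CPM of at least 5) with the member of smallest p; Limk1, Limk2, Tesk1, Coro7 and the copies were named after their values were seen.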

Additional observations from a re-analysis of the deposited data

Results flagged for a closer look

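In groups of 4 libraries, a library was marked where its gap to the nearest of the others took up more of the group's range than Dixon's 95% critical value allows. Of 42 such groups of members and ratios, 4 had a marked library, where chance marks about 1 in 20. Levels here are TMM-scaled CPM. Cfl1 was highest in SRF-KO OL replicate 4, at 1382 CPM, and the other 3 knockout libraries lay within 1045 to 1098 CPM; in deposited TPM this library was the lowest knockout. Wdr1 was lowest in the same library, at 148 CPM, against 319 to 351 CPM in the other knockouts. Cap1 was highest in control OPC replicate 4, at 16.8 CPM, against 13.4 to 13.7 CPM in the other control OPCs. The log2 ratio of Tmsb10 over Tmsb4x was lowest in control OL replicate 3, at -4.73, against -4.40 to -4.35 in the other control OLs. The groups of 3 SRF-KO OPC libraries were too small for this comparison.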

How the results depend on the processing

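Under the alternatives run, 0 of 10 were called in OPCs and for the difference between stages, and 0 to 2 in OLs (1 by DESeq2; leaving out 1 library gave 0 to 2). In OPCs the count of all genes called was 9, against 130 by DESeq2 and 101 without a filter on low counts, and 1 to 4 when a library was left out. In OLs it was 45, against 74 with library totals (39 higher and 35 lower, beside 10 higher and 35 lower with TMM), 299 by DESeq2, 129 without a filter and 7 to 636 when a library was left out. For the difference between stages it was 18, against 168 by DESeq2, 30 by limma-voom, 88 without a filter and 4 to 134 when a library was left out. Library totals turned the sign of Dstn (0.21) and Tmsb4x (0.0901) in OLs and of the difference between stages of Cap1 (0.10), Pfn2 (0.23, and 0.00174 by DESeq2) and Tmsb4x (0.10). They moved the median of all genes by 0.22 in OLs and by 0.21 for the difference, and relative to that median the values were -0.0323 for Dstn and -0.15 for Tmsb4x in OLs, and -0.11 for Cap1, 0.00747 for Pfn2 and -0.12 for Tmsb4x for the difference. Library totals gave -0.51 for Cfl1, -0.35 for Tmsb10, -0.29 for Wdr1 and -0.28 for Pfn1 in OLs. Leaving out 1 library gave log2 ranges that cross 0 in OPCs for Cfl1 (-0.13 to 0.00191), Pfn1 (-0.21 to 0.00977), Tmsb4x (-0.15 to 0.15), Tmsb10 (-0.13 to 0.46) and Cfl2 over Cfl1 (-0.0823 to 0.0869), in OLs for Dstn (-0.0696 to 0.0348), and for the difference of Pfn2 (-0.0415 to 0.0424). From deposited TPM, where the median of all genes was -0.0705 in OPCs and 0.32 in OLs, the log2 ratio of group means was 0.14 for Dstn, -0.21 for Wdr1 and 0.0440 for Pfn2 in OPCs, and 0.50 for Cfl2, 0.29 for Dstn, 0.14 for Gsn, 0.0677 for Wdr1 0.47 for Pfn2, -0.42 for Cfl1, -0.28 for Tmsb10 and -0.23 for Pfn1 in OLs. Relative to that median, each of the 10 genes had the same sign in OLs in TMM-scaled CPM, CPM of library totals and TPM. The causes of the changes other than those with library totals were not tested.

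The values gave no sign that replicate numbers pair the samples. Deviations of same-numbered libraries correlated at -0.02 to 0.05 in OPCs and -0.28 to 0.03 in OLs. For libraries with different numbers the range was -0.05 to 0.05 in OPCs and -0.23 to 0.28 in OLs. With so few libraries a pairing could be missed. With the replicate block, 2 genes were called in OPCs, 5 in OLs and 0 for the difference, none of them among the 10, and the OPC ratio of Cfl2 over Cfl1 was 0.0611 on the log2 scale. Cap1 had 68 to 327 counts per library, the fewest of the 10.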
